A study of Mus musculus with 4 samples.

Results

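Serotonin synthesis, packaging, uptake and breakdown were followed through 8 genes, Tph2, Slc6a4, Slc18a2, Ddc, Gch1, Gchfr, Maob and Slc22a3. They were taken by symbol from the probe annotation of the array, and each had 1 probe, so they make up 8 of the 16383 genes measured. RNA from tissue given as dorsal raphe nucleus of the mouse, the midbrain and pontine cell group that supplies much of the serotonin of the forebrain, was hybridised to 4 single-colour arrays. The groups were stressed D2LR-KO mice, labelled as knockouts of the long form of the dopamine D2 receptor, stressed D2R-KO mice, labelled as knockouts of the receptor, stressed WT mice and non-stressed WT mice. All were C57BL/6J males aged 10 weeks, and each array carried RNA pooled from 5 mice. Stress was a swim of 6 min repeated on 4 days, with tissue taken 12 h after the last one. Neither the knockout alleles nor the cells they act in are given in the sources used here, and the design has no non-stressed knockout, so a knockout set against non-stressed WT differs in stress and in genotype. Drd2, the gene of the receptor, had deposited intensities of 48.3 in stressed D2LR-KO, 20.9 in stressed D2R-KO, 43.8 in stressed WT and 26.8 in non-stressed WT. In D2R-KO it was detected, 1.12-fold lower than in non-stressed WT, 1.51-fold lower than in stressed WT and 1.56-fold lower than in D2LR-KO. The position of its probe relative to the deleted part is unknown here, so its values do not check the knockout labels. With 1 array per group no value has a replicate error and no difference could be tested. The number of arrays limits the precision.

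Serotonin is made from tryptophan in 2 steps. Tryptophan hydroxylase, in neurons the product of Tph2, needs the cofactor tetrahydrobiopterin, and the decarboxylase Ddc completes the synthesis. Gch1 makes the precursor of that cofactor, and the product of Gchfr binds Gch1 and passes feedback to it. The vesicular transporter Slc18a2 loads the amine into vesicles, the plasma membrane transporter Slc6a4 takes it back up after release, Slc22a3 is a low-affinity uptake route outside the terminal, and Maob is a mitochondrial oxidase that breaks amines down. Tph2 and Slc6a4 mark serotonergic neurons in the brain, whereas Ddc, Slc18a2 and Gch1 also serve dopamine and noradrenaline neurons.

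Spots were taken as detected above a limit set by the blank spots of the same array (their mean plus 2 SD), and 91.0% to 91.6% of 23465 gene probes passed. All 8 genes were detected on all 4 arrays. Levels are the authors' deposited intensities, which are linear and have a median of 25 on each array. Folds are on the log2(signal + 50) scale after background correction and quantile normalization, which understates the differences of dim genes. The stressed WT array stood apart, with r across genes of 0.958 to 0.966 against the other 3 arrays, which correlated with each other at 0.990 to 0.994. More genes were 1.5-fold apart in each comparison that uses it than in the others. On 48 repeated control spots the SD of a log2 difference between a pair of arrays was 0.118 to 0.204, which covers spots on an array and neither mice nor labelling.

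The genes most closely tied to serotonergic neurons were brighter on both knockout arrays than on both WT arrays. Tph2, the hydroxylase, had deposited intensities of 151.5 in stressed D2LR-KO, 264.6 in stressed D2R-KO, 10.7 in stressed WT and 31.4 in non-stressed WT. The WT arrays thus held the low values, and the stressed WT value lay below the array median. Against non-stressed WT its log2 fold was 1.55 in D2LR-KO (2.93-fold), the third highest of 15574 genes compared, and 2.13 in D2R-KO (4.38-fold), the third highest of 15607. On the deposited scale, which adds no offset, the ratios were 4.82 and 8.43. Against stressed WT the log2 folds were 2.19 in D2LR-KO and 2.76 in D2R-KO. Between the knockouts D2LR-KO was lower by 0.58 on the log2 scale, just short of 1.5-fold, which ranked 53 from the lowest of 15606 genes.

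Slc6a4, the serotonin transporter, took the same order of arrays. Its intensities were 43.5 in stressed D2LR-KO, 89.6 in stressed D2R-KO, 6.8 in stressed WT and 11.6 in non-stressed WT, so both WT values were below the array median. The log2 folds over non-stressed WT were 0.83 in D2LR-KO (1.78-fold, rank 32 of 15574) and 1.46 in D2R-KO (2.74-fold, rank 6 of 15607). Deposited intensities gave ratios of 3.75 and 7.72. Over stressed WT the log2 folds were 1.05 and 1.67 in D2LR-KO and D2R-KO. D2LR-KO was 1.54-fold lower than D2R-KO (log2 fold -0.63). With the brightness around each spot as background the difference between the knockouts was -0.12 for Slc6a4 and -0.18 for Tph2. The control-spot SD of 0.200 for that pair was taken with the blank spots as background, so it does not measure the spread in this setting.

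Gchfr, the feedback regulator of cofactor synthesis, was the other gene past 1.5-fold in both knockouts. Its intensities were 60.7 in stressed D2LR-KO, 87.1 in stressed D2R-KO, 18.5 in stressed WT and 19.4 in non-stressed WT. The WT values lay close together, 1.03-fold apart on the log2(signal + 50) scale, and the knockouts lay above both. The log2 fold over non-stressed WT was 0.88 in D2LR-KO (1.84-fold, rank 24) and 1.17 in D2R-KO (2.25-fold, rank 12). Over stressed WT it was 0.92 and 1.21 in the same order of knockouts. Gchfr differed less between D2LR-KO and D2R-KO, at -0.29.

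**Figure D1:**
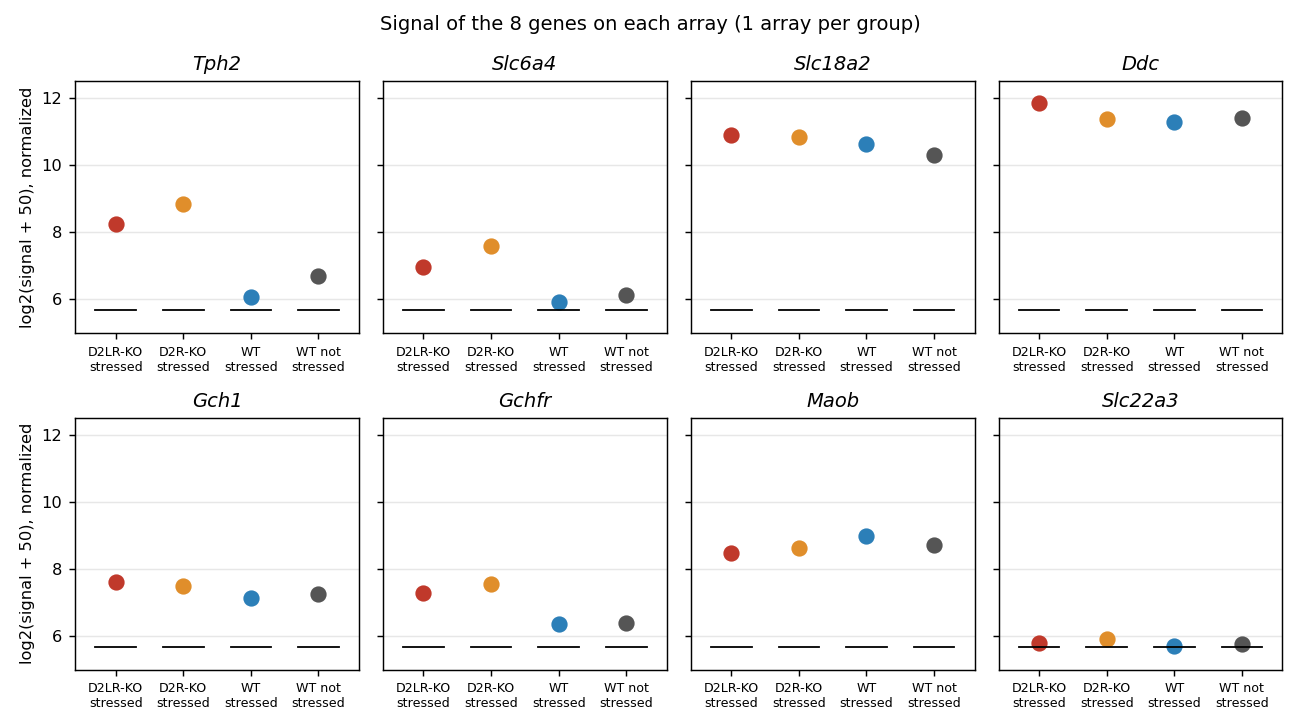
Normalized log2(signal + 50) of the 8 genes on the stressed D2LR-KO, stressed D2R-KO, stressed WT and non-stressed WT arrays, 1 point per array, with short black lines at the lowest detected signal of each array (5.68 to 5.69). Tph2, Slc6a4 and Gchfr sit higher on both knockout arrays, the other 5 genes span at most 0.58 over the 4 arrays, and Slc22a3 lies near the black lines throughout.

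These calls depend on how the background is taken. With the brightness around each spot in place of the blank spots, the log2 folds of Tph2 over non-stressed WT were 0.48 in D2LR-KO and 0.65 in D2R-KO, and over stressed WT 0.39 and 0.57, so among these only D2R-KO over non-stressed WT stayed past 1.5-fold. Gchfr then had 0.44 and -0.02 over non-stressed WT and 0.34 and -0.12 over stressed WT. The surroundings of the Tph2 spot measured 245 in D2LR-KO, 473 in D2R-KO, 54.3 in stressed WT and 115 in non-stressed WT, against spot medians of 266, 514, 55.8 and 103. The Tph2 spot was thus about as bright as its surroundings, at 0.896 to 1.09 times them, and dimmer than them in non-stressed WT. The Gchfr spot was 1.02 to 1.21 times as bright as its surroundings. Slc6a4 stood out more, at 1.18 to 2.24 times its surroundings, and kept 0.73 and 0.86 over non-stressed WT and 0.78 and 0.90 over stressed WT. Across all gene spots the surroundings followed the spot itself (r = 0.8 to 0.887).

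The promoters of these 3 genes are shown because they were the members with both knockout arrays at least 1.5-fold above both WT arrays in the reported setting. Each sequence is the 250 bases before the annotated start in the RefSeq GRCm38.p6 promoter table, which holds 7 of the 8 genes, written 5′ to 3′ on the gene's strand. Capitals mark matches on either strand to the GATA letters AGATAA and AGATAG or their T-first forms TGATAA and TGATAG, to TATAAA, to TGACG, the start of a cyclic AMP response element, and to CCAAT. These motifs were chosen with the sequences in view.
Tph2 (chr10:115185023-115185272, minus strand): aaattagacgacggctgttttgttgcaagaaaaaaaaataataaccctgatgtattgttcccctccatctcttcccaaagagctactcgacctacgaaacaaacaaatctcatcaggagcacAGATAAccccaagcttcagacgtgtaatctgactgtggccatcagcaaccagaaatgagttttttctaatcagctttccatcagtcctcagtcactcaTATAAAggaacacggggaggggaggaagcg
Slc6a4 (chr11:76998347-76998596, plus strand): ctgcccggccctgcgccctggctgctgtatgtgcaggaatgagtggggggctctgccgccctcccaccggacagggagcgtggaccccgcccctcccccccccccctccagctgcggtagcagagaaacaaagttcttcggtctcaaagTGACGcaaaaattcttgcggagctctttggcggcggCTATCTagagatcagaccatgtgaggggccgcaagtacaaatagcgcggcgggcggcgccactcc
Gchfr (chr2:119167538-119167787, plus strand): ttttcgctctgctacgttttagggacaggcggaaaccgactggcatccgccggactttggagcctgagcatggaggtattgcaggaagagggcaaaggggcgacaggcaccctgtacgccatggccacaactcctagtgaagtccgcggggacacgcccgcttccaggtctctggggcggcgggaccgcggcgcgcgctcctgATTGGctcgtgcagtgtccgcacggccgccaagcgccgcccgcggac
In the Tph2 promoter AGATAA begins 128 bases and TATAAA 30 bases before the start. The Slc6a4 promoter holds TGACG from 101 bases and the GATA letters on the other strand (CTATCT) from 65 bases before it. The Gchfr promoter holds CCAAT on the other strand (ATTGG) from 47 bases before the start. Among 32851 promoters of this length 26.5% hold the GATA letters, 12.4% TATAAA, 17.8% TGACG and 33.8% CCAAT, and no motif searched was in all 3. GC content was 43.6% in Tph2, 64.8% in Slc6a4 and 66.4% in Gchfr, against a median of 52.4% over all promoters.

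In the reported setting the genes shared with other aminergic neurons differed less between knockout and WT arrays than Tph2, Slc6a4 and Gchfr. Slc18a2, the vesicular transporter, had intensities of 1133 in stressed D2LR-KO, 1198 in stressed D2R-KO, 718.1 in stressed WT and 702.5 in non-stressed WT. Both knockouts again lay above both WT arrays, by ratios of 1.61 and 1.71 over non-stressed WT on the deposited scale. The normalized log2 folds were 0.58 in D2LR-KO and 0.54 in D2R-KO over non-stressed WT, short of 1.5-fold, and 0.24 and 0.21 over stressed WT. With the surroundings as background the folds over non-stressed WT were 2.08 and 1.69, and that of stressed WT over non-stressed WT was 1.56. In that setting Slc18a2 thus differed more from non-stressed WT than Tph2 (0.48 and 0.65), Slc6a4 (0.73 and 0.86) and Gchfr (0.44 and -0.02). Ddc, at 1.20 and 0.30, exceeded Tph2 and Slc6a4 in D2LR-KO only, and Gch1, at 0.19 and 0.26, in neither knockout. Over stressed WT Slc18a2 had 0.52 and 0.12 in that setting, below Slc6a4 at 0.78 and 0.90. It was above Tph2 (0.39 and 0.57) in D2LR-KO only and above Gchfr (0.34 and -0.12) in both knockouts. Ddc, at 0.80 and -0.09, was above Tph2, Slc6a4 and Gchfr in D2LR-KO, and above only Gchfr in D2R-KO. Gch1, at 0.15 and 0.22, was above only Gchfr, in D2R-KO. In that setting the shared genes thus did not differ less throughout.

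Ddc, the decarboxylase, did not follow Tph2. Its intensities were 2254 in stressed D2LR-KO, 1735 in stressed D2R-KO, 1119 in stressed WT and 1563 in non-stressed WT. The D2LR-KO array held the highest value, with log2 folds of 0.45 over non-stressed WT, 0.58 over stressed WT and 0.50 over D2R-KO, none of them 1.5-fold. With the surroundings as background these were 1.20, 0.80 and 0.90, and on the deposited scale the fold over stressed WT was 1.01, so its calls depend on the setting. D2R-KO was at -0.05 over non-stressed WT after normalization, where the knockout and WT arrays overlapped. They did not overlap on the deposited scale or with median scaling, where the dimmer knockout lay above the brighter WT array by 0.15 and 0.04 on the log2 scale.

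Gch1, the cofactor synthesis enzyme regulated by the product of Gchfr, had intensities of 84.2 in stressed D2LR-KO, 80.5 in stressed D2R-KO, 48.9 in stressed WT and 59.1 in non-stressed WT. The knockouts were higher by a small margin, with log2 folds of 0.36 and 0.25 over non-stressed WT and 0.46 and 0.34 over stressed WT. Its largest difference after normalization was 1.38-fold, and the knockouts differed from each other by 0.12, within the SD of 0.200 of the control spots for that pair. On the deposited scale the ratios over stressed WT were 1.72 in D2LR-KO and 1.65 in D2R-KO, past 1.5-fold. On that scale 25.6% and 29.5% of all genes were at least 1.5-fold higher in these 2 comparisons.

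The breakdown gene and the low-affinity uptake gene had no difference of 1.5-fold between any pair of arrays after normalization. Maob, which astrocytes express as well as serotonergic neurons, had intensities of 182.0 in stressed D2LR-KO, 221.5 in stressed D2R-KO, 218.4 in stressed WT and 216.5 in non-stressed WT. It was the single member with both knockout arrays below both WT arrays after normalization, with log2 folds of -0.23 and -0.10 over non-stressed WT and -0.51 and -0.37 over stressed WT. On the deposited scale D2R-KO was not below WT, with ratios of 1.02 and 1.01 over non-stressed and stressed WT. Slc22a3, the low-affinity transporter, had intensities of 3.3, 5.6, 1.9 and 2.5 in stressed D2LR-KO, stressed D2R-KO, stressed WT and non-stressed WT. Its spots measured 41.8, 48.2, 41.9 and 43.7 against detection limits of 38, 39.5, 40.3 and 40.2, so a difference could hardly be seen at this signal. None of its log2 folds exceeded 0.19.

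In the comparison of stressed D2LR-KO with non-stressed WT, 3 of the 8 genes were at least 1.5-fold higher, against 0.751% of 15574 genes, and 0 were lower, against 1.41%. The member median log2 fold was 0.52, and that of all genes 0.00. Stressed D2R-KO against non-stressed WT also had 3 members higher, against 0.583% of 15607 genes, and 0 lower, against 1.48%, with a member median of 0.39. The members past the fold were Tph2, Slc6a4 and Gchfr in both comparisons, which share the non-stressed WT array.

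Among stressed mice the background was wider. Stressed D2LR-KO over stressed WT had 3 members at least 1.5-fold higher, against 8.73% of 15640 genes, and 0 lower, against 8.20%. Stressed D2R-KO over stressed WT had 3 higher, against 9.33% of 15655 genes, and 0 lower, against 8.62%. Tph2 ranked 8 from the top in D2LR-KO and 2 in D2R-KO, Slc6a4 ranked 343 and 49, and Gchfr ranked 518 and 218. Slc6a4 and Gchfr therefore ranked further from the top of all genes here than against non-stressed WT, although their log2 folds were slightly larger. These comparisons share the stressed WT array, the one that stood apart.

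**Figure D2:**
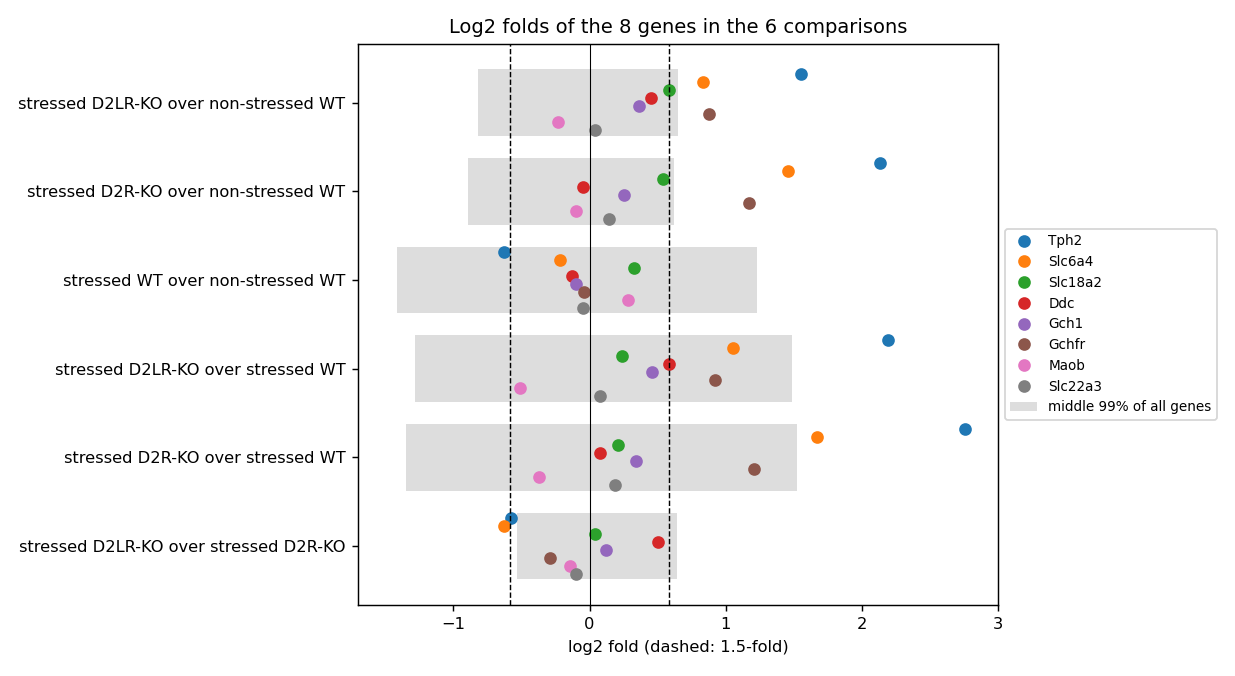
Log2 folds of the 8 genes in each of the 6 comparisons, 1 coloured point per gene, over grey bars that hold the middle 99% of all genes compared; dashed lines mark 1.5-fold. Tph2 lies beyond the grey bar in all 4 comparisons of a knockout with WT, and the bars are wider wherever the stressed WT array enters (-1.41 to 1.23 for stressed over non-stressed WT, and -0.82 to 0.65 for D2LR-KO over non-stressed WT).

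Forced swimming in WT, read from stressed against non-stressed WT, left 7 of the 8 genes within 1.5-fold. Tph2 was the exception, 1.55-fold lower (log2 fold -0.63), so 1 member was lower, against 8.12% of 15643 genes, and 0 were higher, against 7.27%. That share of members is near the background, Tph2 ranked 1105 from the lowest, and its fold was 0.08 with the surroundings as background and short of 1.5-fold with cyclic loess. Slc6a4 was at -0.22, Slc18a2 at 0.33, Ddc at -0.13, Gch1 at -0.10, Gchfr at -0.04, Maob at 0.28 and Slc22a3 at -0.05.

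D2LR-KO was set against D2R-KO to compare loss of the long form alone with loss of the receptor. Of the members 1 was at least 1.5-fold lower in D2LR-KO, Slc6a4, against 0.333% of 15606 genes, and 0 were higher, against 0.666%. Tph2 lay on the same side at -0.58 and passed 1.5-fold with an offset of 16, with median scaling, with cyclic loess and with the deposited intensities, where the ratio was 0.573. With the surroundings as background neither gene passed it, with Tph2 at -0.18 and Slc6a4 at -0.12. Ddc stood on the other side at 0.50, ranked 156 from the highest. The other 5 genes lay between -0.29 and 0.12, so the order of the knockout arrays was not shared by the pathway.

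**Figure D3:**
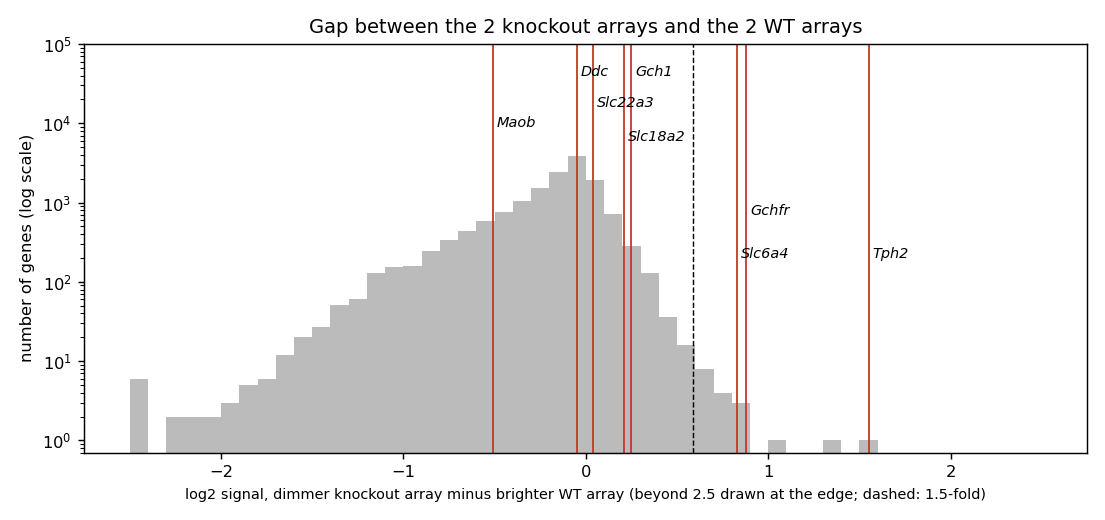
Histogram over 15006 genes detected on both knockout arrays of the log2 signal on the dimmer knockout array minus that on the brighter WT array, with the 8 genes as red lines and 1.5-fold dashed; the vertical axis is logarithmic. Tph2 (1.55) is at the right end, Gchfr (0.88) and Slc6a4 (0.83) are in the thin upper tail, and Ddc (-0.05) and Maob (-0.51) lie below 0.

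Both knockout arrays lay above both WT arrays for 6 of the 8 genes at any margin, against 19.4% of 15875 genes, and both lay below for 1, Maob, against 19.0%. A margin of 1.5-fold between the dimmer knockout and the brighter WT array was met by 3 members, against 0.126% of genes, or 20 in all. Tph2 had the widest margin of the 15006 genes detected on both knockout arrays, 2.93-fold. Gchfr ranked 4 with 1.84-fold and Slc6a4 ranked 6 with 1.78-fold, and the margins of Gch1 and Slc18a2 were 1.19-fold and 1.15-fold. The sixth gene, Slc22a3, had a margin of 1.02-fold at a signal too near the detection limit to order its arrays, and with the surroundings as background its knockout and WT arrays overlapped. The arrays grouped here differ in genotype or in stress and are not replicates of each other. With the surroundings as background 1 member, Slc6a4, kept the 1.5-fold margin.

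The genes nearest to Tph2 in pattern, by Euclidean distance between log2 signals centred over the 4 arrays among 14703 other genes detected on all of them, were Slc6a5 (0.79), Hoxb5 (0.81), Acaa1b (0.94), Rasgef1b (0.94) and Slc6a4 (0.95). Gchfr ranked 14 at 1.21. Slc6a5, the glycine transporter of hindbrain and spinal neurons, had intensities of 53.2 in stressed D2LR-KO, 231.9 in stressed D2R-KO, 2.4 in stressed WT and 3.0 in non-stressed WT. Hoxb5, a homeobox gene of the hindbrain and spinal cord, had 108.0, 141.1, 4.2 and 50.6 on the same arrays. Nearest to Slc6a4 was Gchfr (0.34), then Pvalb, which encodes parvalbumin (0.42), the growth factor gene Fgf1 (0.48), Hapln2 (0.49) and Adm (0.51). With 4 arrays many genes share such a pattern.

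Other genes of the pathway were mostly within 1.5-fold of non-stressed WT in the knockouts. Over stressed WT their counts past 1.5-fold in each direction were near the shares of all genes. Of 32 listed, which cover cofactor synthesis and recycling, tryptophan supply and other routes of tryptophan and amine breakdown, 27 were measured. Over non-stressed WT 0 were 1.5-fold higher in either knockout, 0 were lower in D2LR-KO, and 2 were lower in D2R-KO, Slc3a2 at -0.64 and Aldh1a2, which makes retinoic acid, at -0.60. Slc3a2 and Slc7a5 form a carrier of large amino acids including tryptophan, and both were higher in stressed over non-stressed WT, at 0.71 and 0.78, while Akr1a1, an aldehyde reductase, was lower at -0.84. Over stressed WT 3 were higher and 3 lower in each knockout, where 8.73% and 9.33% of all genes were higher and 8.20% and 8.62% lower in D2LR-KO and D2R-KO. The higher ones were Akr1a1 (0.90 in D2LR-KO and 0.74 in D2R-KO), Maoa (0.66 and 0.67), the oxidase that prefers serotonin, and Aldh1a1 (0.70 and 0.63), and the lower ones were Slc3a2 (-0.91 and -1.35), Slc7a5 (-0.87 and -0.69) and Pts (-0.75 and -0.92), which acts after Gch1 in cofactor synthesis. Between the knockouts Aldh1a2 was higher in D2LR-KO, at 0.68. The list medians were between -0.01 and 0.02 in all 6 comparisons. Qdpr, which recycles the cofactor, had log2 folds of 0.33 and 0.37 over non-stressed WT in D2LR-KO and D2R-KO and of 0.37 in stressed WT, and Tph1, the hydroxylase outside the brain, had 0.04 and -0.03.

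Serotonergic neuron regulators and markers other than the members gave no common direction. Of 17 listed 13 were measured, all detected on every array, and their summed intensity was 154 in stressed D2LR-KO, 226 in stressed D2R-KO, 201 in stressed WT and 157 in non-stressed WT. Over non-stressed WT 0 were 1.5-fold higher in D2LR-KO and 1 in D2R-KO, against 0.751% and 0.583% of all genes, and 0 were lower in either. That gene was the transcription factor gene Gata3 at 0.77, with Gata2 at 0.31 and 0.55. Over stressed WT 1 was lower in each knockout, Trh at -0.83 and -0.80, against 8.20% and 8.62% of all genes. On the higher side 0 passed in D2LR-KO and 1 in D2R-KO, Gata2 at 0.67, against 8.73% and 9.33%. Lmx1b, a factor needed for the serotonergic fate, had intensities of 4.2, 5.6, 10.8 and 4.3 in stressed D2LR-KO, stressed D2R-KO, stressed WT and non-stressed WT. Htr1a, the serotonin 1A receptor, was at -0.18 and 0.11 over non-stressed WT in D2LR-KO and D2R-KO. On the label of dorsal raphe tissue, Tph2 and Slc6a4 were thus detected everywhere, with Tph2 near or below the array median and Slc6a4 below it in WT, and the median intensity of the other markers was 8.3, 9.6, 10.8 and 12.1 in stressed D2LR-KO, stressed D2R-KO, stressed WT and non-stressed WT. How much of the nucleus each pool held is not known here. In bulk RNA fewer cells of a type and less RNA per cell cannot be told apart.

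Markers of brain region also differed between the knockout and WT arrays. Their lists were chosen with earlier results of these data known, so the counts are no independent evidence of a difference in region. Of 9 forebrain markers 7 were at least 1.5-fold lower over non-stressed WT in each knockout, against 1.41% and 1.48% of all genes. Tbr1 and Emx1 were not. The summed intensity of the 9 was 2346 in stressed D2LR-KO, 2263 in stressed D2R-KO, 7401 in stressed WT and 6649 in non-stressed WT. Of 7 hindbrain markers 2 were higher in each knockout, Slc6a5 and Hoxb5, against 0.751% and 0.583% of all genes. The 7 summed to 239, 445, 37.8 and 92.2 on the same arrays. All markers of both lists were detected on every array. The pituitary hormone genes Prl, Pomc and Gh were at least 1.5-fold higher in D2R-KO over each of the other arrays. The sum over the measured pituitary genes was 578 in D2R-KO, against 93.5 in D2LR-KO, 119 in stressed WT and 85.9 in non-stressed WT. Lhb had 2.8 in D2R-KO, against 2.9, 5.3 and 2.2 on those arrays, and Tshb was below the detection limit on every array. Of 6 choroid plexus and ependyma markers 5 were lower over non-stressed WT on each stressed array. The shares of all genes were 1.41%, 1.48% and 8.12% in stressed D2LR-KO, D2R-KO and WT. The 6 summed to 234, 69.5 and 5776 on those arrays, against 13088 in non-stressed WT. Ttr made up most of the WT sums, with 193.1, 20.3 and 5720.2 on those arrays and 12884.0 in non-stressed WT. Over stressed WT it was the only 1 of the 6 that was lower in each knockout, against 8.20% and 8.62% of all genes. Genes of neurons in general summed to 22096, 29953, 15802 and 23789 in stressed D2LR-KO, stressed D2R-KO, stressed WT and non-stressed WT. The part of these differences in the levels of Tph2, Slc6a4 and Gchfr was not tested.

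**Figure D4:**
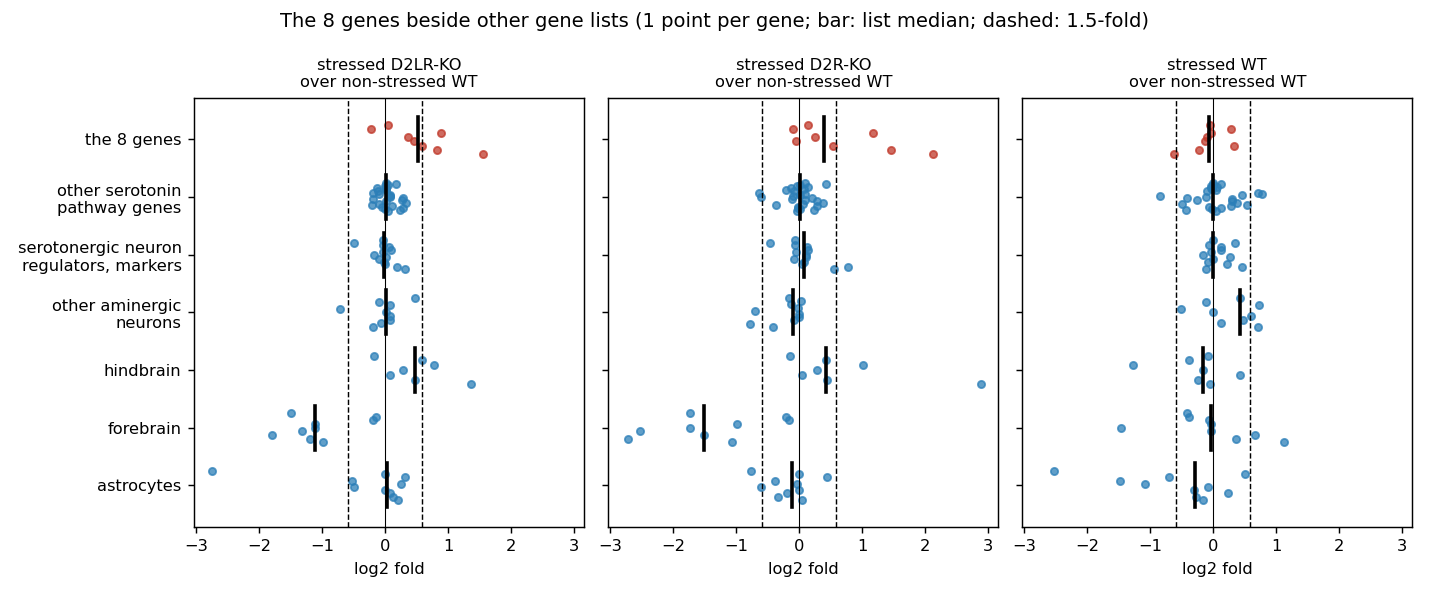
Log2 folds over non-stressed WT for stressed D2LR-KO, stressed D2R-KO and stressed WT, with 1 point per gene and a black bar at each list's median; dashed lines mark 1.5-fold. The 8 genes have medians of 0.52, 0.39 and -0.07, the other serotonin pathway genes 0.02, 0.02 and 0.00, and the forebrain markers -1.12, -1.51 and -0.04.

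Neurons that use other amines were read beside Ddc, Slc18a2 and Gch1, which they also express. Of 10 measured genes of these neurons 1 was lower over non-stressed WT in D2LR-KO and 2 in D2R-KO, against 1.41% and 1.48% of all genes. On the higher side there were 0 in either, against 0.751% and 0.583%. Over stressed WT 2 were lower in D2LR-KO, Th and Pitx3, against 8.20% of all genes. In D2R-KO 5 were lower, Th, Slc6a3, Pitx3, Dbh and Drd2, against 8.62%. In both knockouts 0 were higher over stressed WT, against 8.73% and 9.33%. Stressed over non-stressed WT had 3 higher, Pitx3, Th and Dbh, against 7.27% of all genes, and 0 lower, against 8.12%. The comparisons with stressed WT use the array that stood apart. Th, which makes the dopamine precursor, had intensities of 813.9 in stressed D2LR-KO, 772.8 in stressed D2R-KO, 1156 in stressed WT and 897.3 in non-stressed WT, so the knockouts held its lower values. The summed intensity of the list was 1483, 1254, 1856 and 1628 on the same arrays, with Phox2a detected in D2R-KO only. Astrocyte markers, read beside Maob, had sums over 10 genes of 7128 in stressed D2LR-KO, 7650 in stressed D2R-KO, 3100 in stressed WT and 7090 in non-stressed WT, an order that Maob did not share.

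**Figure D5:**
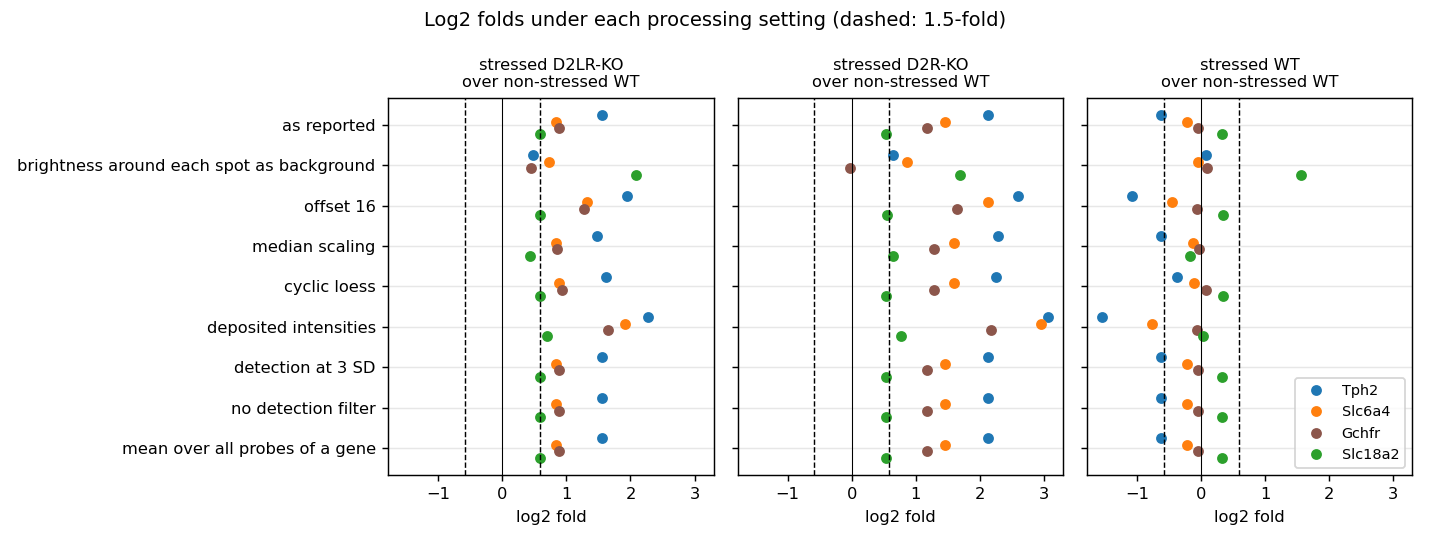
Log2 folds of Tph2, Slc6a4, Gchfr and Slc18a2 over non-stressed WT for stressed D2LR-KO, stressed D2R-KO and stressed WT under the reported setting and 8 others, 1 row per setting, with 1.5-fold dashed. The row that uses the brightness around each spot stands apart, with Tph2 at 0.48, 0.65 and 0.08 and Slc18a2 at 2.08, 1.69 and 1.56, and the row of deposited intensities holds the largest folds of Tph2, Slc6a4 and Gchfr in the knockouts.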

How the data were processed

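Signal was computed from 4 scanner files. Per the file headers, these hold the red-channel median intensity of every spot and of its surroundings without background subtraction. Each array had 3 scans of different gain, and the way they were merged is not stated there. Per the labels, total RNA was amplified and labelled with Cy5. The authors' deposited value table is also linear intensity. From the values it is close to the spot median minus 1 constant and divided by 1 factor per array. The largest residual from that relation on an array was 1.188 to 2.839.

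Blank spots served as negative controls for normexp (limma 3.58.1, nec, R 4.3.3, offset 50), then log2 values were quantile normalized. These steps were tested on simulated data in which only spots brighter than the array median were changed. The surroundings of spots were not simulated. That test therefore does not cover changes of dim genes or the choice of background. For genes with several probes the brightest was kept, and 9 marked probes were left out. Of 16446 symbols, 12501 were current and 3883 were updated through RefSeq. A gene was compared when detected on at least 1 of the 2 arrays, and counted from 1.5-fold. Python 3.11.15, numpy 2.4.6, pandas 2.3.3 and matplotlib 3.10.9 did the rest. The text names all 8 genes, listed pathway genes past 1.5-fold (at most 6 per comparison) and the 5 genes nearest in pattern to Tph2 and to Slc6a4. Other named genes were chosen after their values were seen. The members and gene lists were chosen with earlier results of these data known. Some listed markers were not analysed here.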

Additional observations from a re-analysis of the deposited data

How the results depend on the processing

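The 13 counts of members past 1.5-fold were recomputed in 8 other settings, and normalization without the stressed WT array was added after seeing the data for the 3 comparisons it allows. With the brightness around each spot as background, stressed WT over non-stressed WT had 1 member higher and 0 lower, D2R-KO over stressed WT had 1 higher, D2LR-KO over D2R-KO had 1 higher and 0 lower, and 1 member kept the margin between both knockouts and both WT arrays. The 3 reversed folds also came from it, Gchfr in D2R-KO at -0.02 over non-stressed and -0.12 over stressed WT, and Tph2 in stressed WT at 0.08. Median scaling gave 5 members higher in each knockout over stressed WT, 2 lower in stressed WT over non-stressed WT and 2 lower in D2LR-KO over D2R-KO. From the deposited intensities, 7 were higher in each knockout over stressed WT, 5 in D2R-KO over non-stressed WT, 2 lower in stressed WT and 3 lower in D2LR-KO over D2R-KO. Cyclic loess gave 0 lower in stressed WT and 2 lower in D2LR-KO over D2R-KO, and the offset of 16, like normalization without stressed WT, gave 2 lower in that comparison. Without that array no member's log2 fold moved by more than 0.085. The cause was not tested. The other 91 of 110 counts were within 1.5 times their reported value, which does not mean the same genes. Each member had 1 probe and was detected on every array. Averaging over probes and leaving out the detection filter therefore could not change a count, and their agreement is no sign of stability. Detection at 3 SD also changed no count of members. With the surroundings as background the 3 members higher over non-stressed WT were Slc6a4, Slc18a2 and Ddc in D2LR-KO and Tph2, Slc6a4 and Slc18a2 in D2R-KO.

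Of all genes 25.6% and 29.5% were higher in D2LR-KO and D2R-KO over stressed WT as deposited, 12.0% and 18.5% with median scaling, and 7.52% in D2R-KO over non-stressed WT as deposited. Over all genes past 1.5-fold the higher side held 34.7% in D2LR-KO over non-stressed WT, against 10.7% with median scaling, 46.2% as deposited and 59.1% with the surroundings as background. It held 28.3% in D2R-KO over non-stressed WT, against 54.1% as deposited and 58.1% with the surroundings. Median scaling gave 14.2% in place of 47.2% in stressed over non-stressed WT, 73.3% in place of 51.6% and 83.2% in place of 52.0% in D2LR-KO and D2R-KO over stressed WT, and 16.8% in place of 66.7% in D2LR-KO over D2R-KO, where the deposited values gave 44.7% and the surroundings 55.0%. The deposited values put 595 to 4432 genes at least 1.5-fold higher, against 91 to 1461 here, and moved the median of all genes by up to 0.12. No paired analysis was possible because each group has 1 array. Slc22a3 lies too near the detection limit to rank its arrays.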
